A study of Mus musculus with 16 samples.

Results

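Serotonin receptor genes were followed in spinal cord RNA of mice with chronic spinal cord injury (SCI), with and without delayed atorvastatin. The members are the 10 genes Htr1a, Htr1b, Htr1d, Htr1f, Htr2a, Htr2b, Htr2c, Htr3a, Htr5a and Htr7, taken by symbol from the 24411 gene symbols of the count and TPM tables. All 10 had a mean TPM (a level per transcript length and library) above 1 in at least 1 group, and so were among the 16091 genes tested.

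Serotonin (5-HT) reaches the spinal cord through axons that descend from the raphe nuclei of the brainstem, and it sets the excitability of motor neurons, interneurons and pain relays. Receptors of the 5-HT1 and 5-HT5 families couple to Gi/o and damp activity, those of the 5-HT2 family couple to Gq and raise excitability, 5-HT7 couples to Gs and cyclic AMP, and 5-HT3 is a cation channel opened by serotonin itself. After cord injury the descending axons are cut or spared in part while the receptors are made by cells of the cord, and 5-HT2 receptors are known for their part in motor neuron excitability and spasms below an injury.

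All mice were female C57BL/6J mice, listed at 12 wk of age, which was the age of the injured ones at surgery. The SCI + Atorvastatin group (n = 7) had a lateral compression injury of the thoracic cord (0.25 mm) and received atorvastatin at 10 mg/kg every day for 4 wk, beginning 2 wk after injury. The SCI + Vehicle group (n = 7) had the same injury and schedule with only the carrier (dimethyl sulfoxide, polyethylene glycol, Tween and saline). The Uninjured Control group (n = 2) had neither injury nor treatment, and no uninjured mouse received atorvastatin. By the study's methods, the controls were also younger at isolation than the injured mice. Injury, surgery, daily injection and age therefore cannot be told apart in comparisons with this group. A 5 mm segment at the injury, or at its match in controls, was taken 6 wk after injury. The labels and the study's methods differ by 2 wk on the age of the controls and by 2 d on the day of isolation.

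Libraries held 14823292 to 25579826 counts on genes, and a count of 0 allows up to 3 counts, which is 0.117 to 0.202 CPM (counts scaled to library size) depending on the library. Other CPM values here are scaled by TMM, a trimmed mean that levels library composition. No molecular identifiers were used, so these limits cover only the error of counting. The control libraries stand apart from the SCI libraries at low levels. Of the 1623 tested genes that averaged between 100 and 200 counts over the injured mice, 38.8% and 43.1% had no count in Uninjured Control replicates 1 and 2, against at most 0.924% in any SCI mouse. Markers of liver also stand apart, with a summed 621 and 3957 CPM in the controls and at most 6.44 CPM in an SCI mouse (6 genes, Ttr among them). The summed level of 15 neuron markers was 14147 and 15618 CPM in the controls, 7818 to 12973 in the SCI + Vehicle group and 7398 to 9462 in the SCI + Atorvastatin group. In these bulk samples, fewer cells of a type and less RNA per cell cannot be told apart.

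Htr2c and Htr7 were the most abundant receptor genes in the injured cord. Mean TPM over the 14 SCI mice was 23.5 for Htr2c, 12.3 for Htr7, 10.6 for Htr1b, 5.70 for Htr2a, 5.50 for Htr1a, 3.75 for Htr2b, 3.58 for Htr3a, 3.30 for Htr5a, 2.18 for Htr1d and 1.22 for Htr1f. Only Htr2c stood above the next gene in this order in 14 of 14 mice. The order of Htr1a over Htr2b and of Htr1d over Htr1f held in 12 mice and that of Htr5a over Htr1d in 11. The remaining neighbours kept their order in 8 to 10 of the 14 mice, so that these did not separate beyond their spread. The 10 genes together came to 64.5 and 81.9 TPM in the controls, 62.6 to 79.2 in the SCI + Vehicle group and 60.7 to 94.3 in the SCI + Atorvastatin group, which overlap. In the controls Htr2c made up 41.7% and 45.1% of that sum and Htr7 21.5% and 26.8%. In the SCI + Vehicle group Htr2c held 29.1% to 37.1% and Htr7 14.9% to 22.4%, and in the SCI + Atorvastatin group 27.8% to 32.7% and 13.2% to 21.5%. The share of Htr2c in this sum was thus lower in each SCI mouse than in either control. However, the sum includes Htr1b, whose TPM departs from its counts (next paragraph). Htr1b made up 0% and 3.14% of it in the controls, 2.64% to 30.3% in SCI + Vehicle mice and 8.95% to 25.1% in SCI + Atorvastatin mice. The lower share is therefore not taken as a result about Htr2c. Htr5a, Htr1f and Htr2b were listed at a TPM of 0 in both controls.

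**Figure D1:**
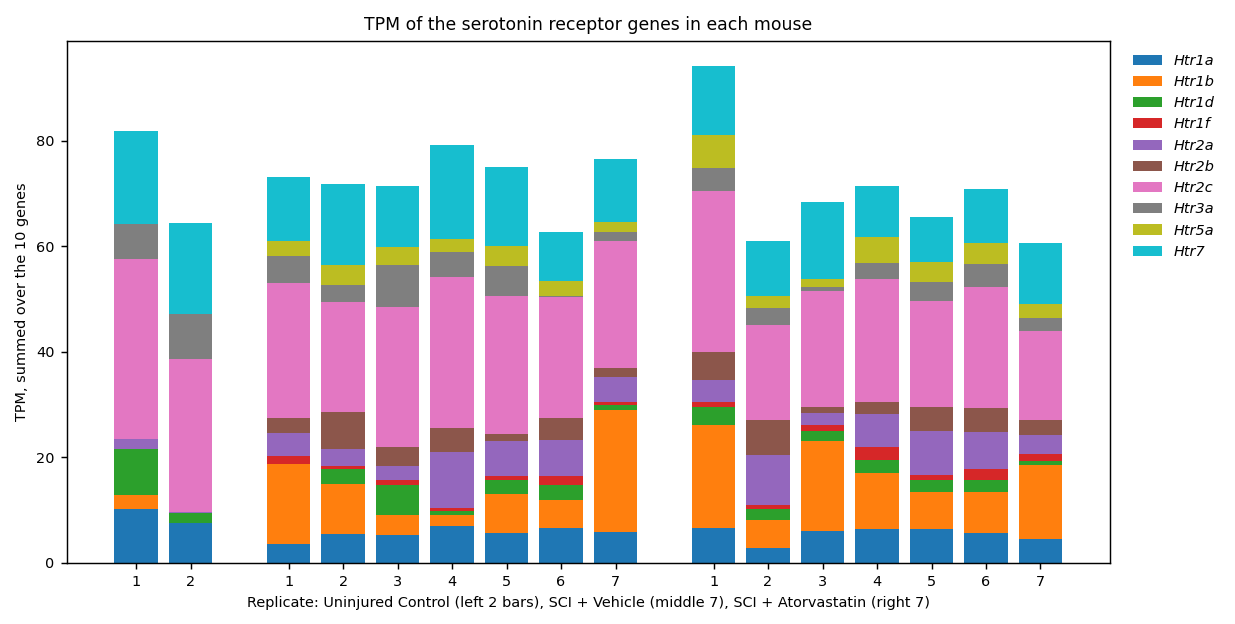
Stacked bars give the TPM of the 10 receptor genes in each mouse, with replicate numbers below the bars and groups side by side. Bar heights run from 60.7 to 94.3 TPM in the SCI mice and are 81.9 and 64.5 in the Uninjured Control mice, and Htr2c is the tallest block in every bar.

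The place of Htr1b in this order depends on the measure. CPM per kilobase of exon, averaged over the 14 SCI mice, put Htr2c (5.30) and Htr7 (5.02) first again, but Htr1b last (0.336 ± 0.279, SD). In the SCI mice the TPM of Htr1b was 2.85 to 41.4 times its CPM, a ratio that varied 14.5-fold, where the same ratio varied 1.21-fold for Htr2c and 1.38-fold for Htr5a. Across the 14 SCI mice TPM and CPM of Htr1b had a Pearson correlation of 0.485, and the median over 12447 genes averaging 20 to 2000 counts was 0.885. In the GENCODE annotation (GRCm38) Htr1b lies on chromosome 9 at 81628291 to 81633828 on the minus strand, has its coding sequence in a single exon, and overlaps the antisense gene D430036J16Rik on the opposite strand. D430036J16Rik itself had 0 to 37 counts per SCI mouse and 0 in both controls. The strand setting of the counting is not given in the sources used here, and reads of Htr1b and its antisense partner then cannot be told apart. Htr2b shares its span with the protein-coding Psmd1 and Htr3a with the antisense gene Gm32335 in the same way.

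Of the Gi/o-coupled receptors, Htr5a (5-HT5A, a receptor of brain and cord neurons) and Htr1b (5-HT1B, an autoreceptor and heteroreceptor of axon terminals that lowers transmitter release) had no count in either Uninjured Control mouse and counts in every SCI mouse. The sequences of their promoters are shown because these are the members upregulated in both comparisons with the Uninjured Control group. They are the 250 bases before the RefSeq transcription start in GRCm38.p6, 5′ to 3′ on the gene's strand, chr5:27841697-27841946 (plus) for Htr5a and chr9:81633833-81634082 (minus) for Htr1b. Capitals mark the letters CCAAT on either strand.
Htr5a: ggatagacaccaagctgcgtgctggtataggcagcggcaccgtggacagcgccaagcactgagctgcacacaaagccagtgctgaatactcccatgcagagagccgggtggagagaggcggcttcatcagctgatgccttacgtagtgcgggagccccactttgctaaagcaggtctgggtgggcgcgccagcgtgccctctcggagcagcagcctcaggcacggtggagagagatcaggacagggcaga
Htr1b: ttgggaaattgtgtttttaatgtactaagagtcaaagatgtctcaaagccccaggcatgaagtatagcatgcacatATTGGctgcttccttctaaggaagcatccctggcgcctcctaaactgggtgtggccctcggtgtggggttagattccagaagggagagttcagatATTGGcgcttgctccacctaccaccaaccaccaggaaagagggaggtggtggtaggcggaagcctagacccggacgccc

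The Htr5a window is 62% G or C with 13 CpG, and the Htr1b window is 52.4% with 6 CpG, where the median over 32851 promoter windows of RefSeq was 52.4% and 6. On both strands, TATAAA (the TATA box) was found in 12.4% of all windows, CCAAT in 33.8%, GGGCGG (a GC box) in 32.7% and TGACGT (from the cyclic AMP response element) in 6.47%. The Htr5a window holds none of these 4 motifs and the Htr1b window holds CCAAT on the opposite strand. Windows were found for 9 of the 10 members, and CCAAT occurs in those of Htr1b, Htr1d and Htr2c, GGGCGG in those of Htr1a, Htr1d and Htr2a, and the other 2 motifs in none. These are matches of letters and not sites of binding. The RefSeq start of Htr5a lies 202 bp from its GENCODE start (chromosome 5, 27842149 to 27855088, plus strand, 2 coding exons).

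For Htr5a, counts were 0 and 0 in the controls, 93 to 193 (median 148) in the SCI + Vehicle group and 64 to 290 (median 155) in the SCI + Atorvastatin group. Each SCI mouse is above both controls, and the treatments overlap. Against a floor of 3 counts per control library, Htr5a was at least 45.9-fold higher in the SCI + Vehicle group (6.48 ± 1.16 CPM before TMM scaling, SD, n = 7) and at least 50.8-fold higher in the SCI + Atorvastatin group (7.17 ± 2.88 CPM before scaling). Both differences passed edgeR's quasi-likelihood test, with adjusted p of 1.56e-04 and 1.72e-04. The call held when each SCI library was left out in turn. However, Htr5a is listed at a TPM of 0 in both controls and reached the TPM limit through the SCI groups alone. This fixes its direction, so neither the p-values nor the repeated calls are support for it. A 0 in both controls was also seen in 20.2% of the 1623 tested genes at the level of Htr5a. Whether the scarcity of low counts in the control libraries has a part in these results was not tested.

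Htr1b had 0 counts in both controls, 4 to 127 (median 16) in the SCI + Vehicle group and 19 to 68 (median 37) in the SCI + Atorvastatin group. It was at least 10.2-fold higher in SCI + Vehicle mice (1.44 ± 1.91 CPM before scaling) and at least 12.5-fold higher in SCI + Atorvastatin mice (1.77 ± 0.633 CPM before scaling), with edgeR adjusted p of 0.0352 and 7.48e-04. Without SCI + Vehicle replicate 1, which lay far above the others of its group with 127 counts, the bound in SCI + Vehicle mice was 5.33-fold. The lowest SCI + Vehicle mouse was 1.2 times the floor, so that the groups are hardly apart there. At this level 65.6% of 1094 genes had no count in both controls. In the SCI + Vehicle comparison the call was lost without SCI + Vehicle replicate 6 (adjusted p = 0.0548) and without Uninjured Control replicate 1 or 2 (0.0631 and 0.0678). By TPM the controls read 2.57 and 0, and limma on log2(TPM + 1) gave a log2 fold change of 2.16 that did not pass in SCI + Vehicle mice and one of 2.63 that passed in SCI + Atorvastatin mice (adjusted p = 0.00562).

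Htr1a (5-HT1A, an inhibitory receptor on neurons) was lower in each SCI mouse than in both controls without passing the test. Its controls were at 19.1 and 13.0 CPM, the SCI + Vehicle group at 6.59 to 11.03 (median 9.51) and the SCI + Atorvastatin group at 4.75 to 11.2 (median 9.31). Log2 fold changes were -0.77 ± 0.34 (SE, adjusted p = 0.116) and -0.88 ± 0.36 (adjusted p = 0.0763). Without Uninjured Control replicate 2 the log2 fold changes were -1.03 and -1.14. Without replicate 1 instead, that in SCI + Vehicle mice was -0.47. DESeq2 called Htr1a in both comparisons, with adjusted p of 0.0389 and 0.0315. Of 18 alternative settings, 2 called it in SCI + Vehicle and 5 in SCI + Atorvastatin mice. Per 1000 CPM of the neuron marker sum, Htr1a stood at 0.832 and 1.35 in the controls and at 0.642 to 1.37 in the SCI mice, which overlap.

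Htr1d and Htr1f (5-HT1D and 5-HT1F, inhibitory receptors of sensory neurons that are targets of the triptans) did not pass against controls that disagreed with each other. Htr1d read 10.1 and 1.81 CPM in the controls, a 5.6-fold gap, and 0.749 to 5.24 and 1.503 to 3.198 CPM in the SCI + Vehicle and SCI + Atorvastatin groups. Its log2 fold change of -1.25 ± 0.85 in SCI + Vehicle mice became 0.46 without Uninjured Control replicate 1, and that of -1.39 ± 0.59 in SCI + Atorvastatin mice became 0.33 without replicate 1 and -2.16 with a call without replicate 2 (adjusted p = 0.00219). Htr1f had 19 and 0 counts in the controls, 18 to 80 in SCI + Vehicle mice and 16 to 101 in SCI + Atorvastatin mice. All SCI + Vehicle mice lay above both controls by CPM (1.23 or more against 0.954 and 0), whereas the lowest SCI + Atorvastatin mouse, at 0.723, did not. Its log2 fold changes of 2.09 ± 1.28 and 2.09 ± 1.29 did not pass (adjusted p = 0.249 and 0.231). Without Uninjured Control replicate 1, which leaves a control of 0 counts and so a fold that is no measure of size, both were called (adjusted p = 0.00499 and 0.00367). By TPM, where both controls are listed at 0, limma on log2(TPM + 1) called Htr1f in SCI + Atorvastatin mice (1.26, adjusted p = 0.00851) but not in SCI + Vehicle mice (0.95, adjusted p = 0.0550). However, Htr1f reached the TPM limit through the SCI + Atorvastatin group alone. Its call by TPM is thus no support for its direction or for a difference between the treatments.

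**Figure D2:**
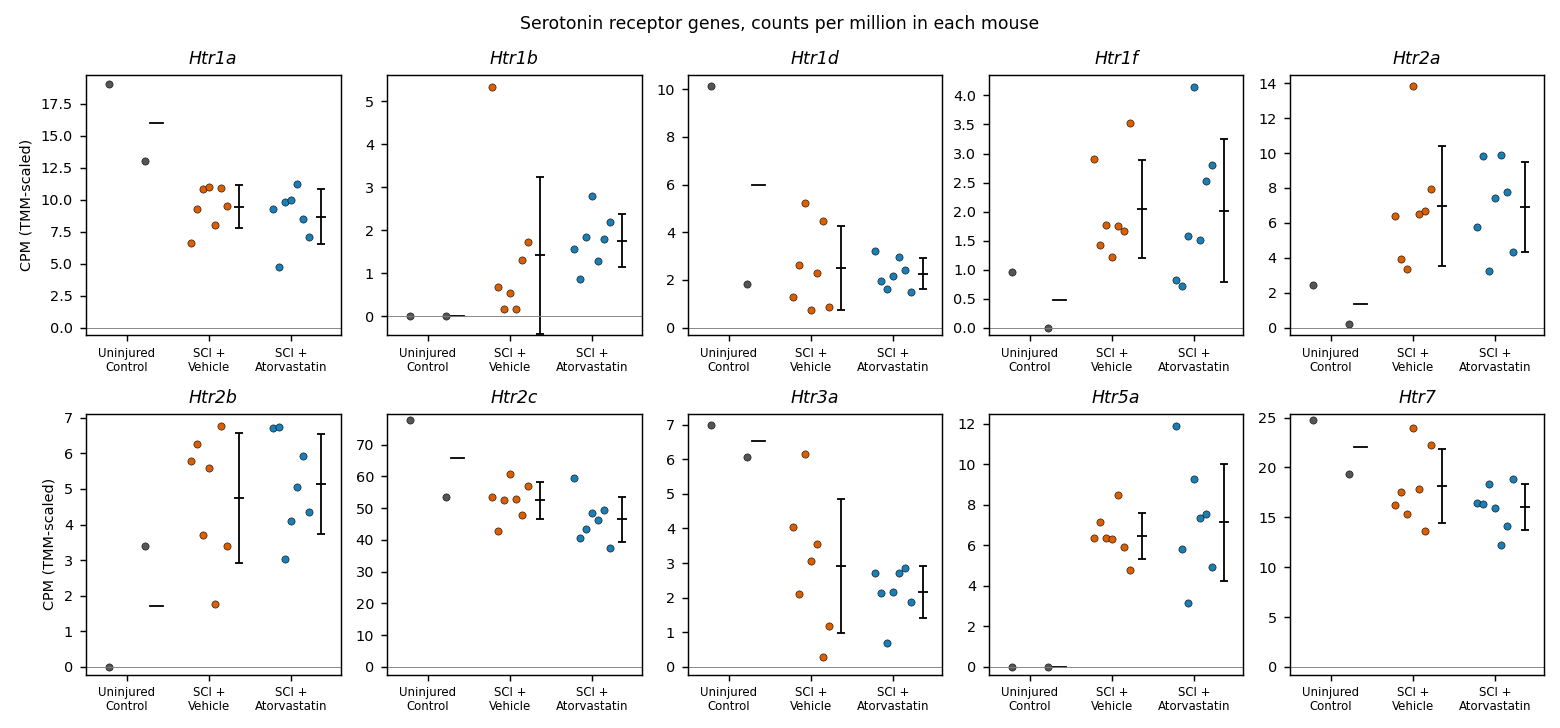
Each panel gives 1 receptor gene in CPM after TMM scaling, with 1 point per mouse, a short line for the mean of the 2 controls and a bar for the mean ± SD of each SCI group (n = 7). Htr5a and Htr1b lie at 0 in both controls, the controls of Htr1a and of Htr3a lie above most or all SCI mice, and the SCI groups overlap in every panel.

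Among the Gq-coupled receptors, Htr2c (5-HT2C, the main Gq-coupled serotonin receptor of central neurons, whose transcript is edited by ADAR enzymes) was at 77.7 and 53.6 CPM in the controls, at 42.9 to 60.8 (median 52.8) in the SCI + Vehicle group and at 37.5 to 59.6 (median 46.1) in the SCI + Atorvastatin group. In both SCI groups the range overlapped the lower control. Log2 fold changes were -0.33 ± 0.17 (adjusted p = 0.173) and -0.49 ± 0.19 (adjusted p = 0.0673). Without Uninjured Control replicate 2 the log2 fold changes were -0.58 and -0.74. Without replicate 1 instead, that in SCI + Vehicle mice was -0.042. Of 18 alternative settings, 1 called Htr2c in SCI + Vehicle and 5 in SCI + Atorvastatin mice. With both controls, the SCI + Atorvastatin comparison passed without SCI + Atorvastatin replicate 1 (-0.56, adjusted p = 0.0337) and with DESeq2 (-0.52, adjusted p = 0.0345). It also passed with the size factors of DESeq2 in edgeR (adjusted p = 0.0479) and with all 3 groups in 1 fit (adjusted p = 0.0232). Per 1000 CPM of the neuron marker sum, Htr2c stood at 3.43 and 5.49 in the controls, at 4.39 to 6.93 in SCI + Vehicle mice and at 4.58 to 6.30 in SCI + Atorvastatin mice, which overlap. The choroid plexus also makes much Htr2c. The summed level of 7 of its markers, Ttr among them, was 32.3 and 207 CPM in the controls and 7.76 to 24.5 in the SCI mice. Ttr, also one of the liver markers, alone stood at 24.4 and 206 CPM in these controls and at most 0.711 in an SCI mouse. The higher sum in the controls thus comes from Ttr, and 4 of the 7 markers had no count in either control (Folr1, Clic6, Otx2 and Kcnj13). The part of choroid plexus in the level of Htr2c was not tested. The gene spans chromosome X, 146962513 to 147197277, plus strand, with 4 coding exons, and hosts small RNA genes on its own strand.

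Htr2a (5-HT2A, an excitatory receptor of motor neurons and interneurons) was above both controls in all 14 SCI mice. It had 2.46 and 0.227 CPM in the controls, 3.35 to 13.8 (median 6.503) in the SCI + Vehicle group and 3.22 to 9.86 (median 7.44) in the SCI + Atorvastatin group. Its log2 fold changes of 2.36 ± 0.92 and 2.36 ± 0.86 had adjusted p of 0.0778 and 0.0526 and were not called. The controls differ 10.9-fold. Without Uninjured Control replicate 1 the log2 fold changes were 4.89 and 4.91, and without replicate 2 that in SCI + Vehicle mice was 1.48. DESeq2 called both with all libraries (adjusted p = 0.0139 and 0.00646), as did limma on log2(TPM + 1) and the fit of all 3 groups. Of 17 alternative settings, 4 called Htr2a in SCI + Vehicle and 5 in SCI + Atorvastatin mice. Htr2b (5-HT2B, known from heart valves, vessels and microglia) had 0 and 75 counts in the controls, 40 to 162 in SCI + Vehicle mice and 61 to 164 in SCI + Atorvastatin mice, with log2 fold changes of 1.46 ± 1.26 and 1.60 ± 1.18 that did not pass (adjusted p = 0.416 and 0.316). The control with 75 counts has a TPM of 0, and limma on log2(TPM + 1) called Htr2b at 2.10 and 2.17. Leaving out that control, replicate 2, leaves a control of 0 counts and so a fold that is no measure of size. Leaving out replicate 1 instead gave a log2 fold change of 0.47 in SCI + Vehicle mice. Htr2b reached the TPM limit through the SCI groups alone, so its calls by TPM are no support for its direction.

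Htr7 (5-HT7, the Gs-coupled receptor of this set, linked to locomotor rhythm and pain) stood at 24.8 and 19.3 CPM in the controls, 13.6 to 24.0 (median 17.6) in the SCI + Vehicle group and 12.3 to 18.9 (median 16.3) in the SCI + Atorvastatin group. The SCI + Atorvastatin mice all lay below both controls, while 2 of the 7 SCI + Vehicle mice reached above the lower control. Log2 fold changes of -0.30 ± 0.28 and -0.45 ± 0.24 did not pass (adjusted p = 0.467 and 0.165). Without Uninjured Control replicate 2 they were -0.47 and -0.62. Without replicate 1 instead, that in SCI + Vehicle mice was -0.11. Per 1000 CPM of the neuron marker sum the direction turned, with Htr7 at 1.24 and 1.75 in the controls, 1.55 to 2.73 in SCI + Vehicle mice and 1.44 to 2.31 in SCI + Atorvastatin mice, ranges that overlap.

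Htr3a, which encodes the subunit that every 5-HT3 channel needs, was downregulated in SCI + Atorvastatin vs. Uninjured Control. Its controls agreed well at 6.98 and 6.07 CPM, the SCI + Vehicle group ranged from 0.293 to 6.15 (median 3.06) and the SCI + Atorvastatin group from 0.694 to 2.87 (median 2.18). All SCI + Atorvastatin mice lay below both controls and 6 of 7 SCI + Vehicle mice did. The log2 fold change was -1.58 ± 0.51 (95% confidence interval -2.71 to -0.44, adjusted p = 0.0322) in SCI + Atorvastatin mice and -1.17 ± 0.82 (-2.99 to 0.65, adjusted p = 0.315) in SCI + Vehicle mice. The call was lost without Uninjured Control replicate 1 (-1.47, adjusted p = 0.0617) and without SCI + Atorvastatin replicate 2, 4 or 7 (adjusted p = 0.0531, 0.0535 and 0.0601). It was also lost with limma on log2(TPM + 1) (adjusted p = 0.0539), with a mean TPM above 1 in every group (0.0595), with all 3 groups in 1 fit (0.0684) and with a replicate block, and so held in 10 of 18 alternative settings. Per 1000 CPM of the neuron marker sum, Htr3a stood at 0.389 and 0.493 in the controls and at 0.0869 to 0.344 in SCI + Atorvastatin mice. In SCI + Vehicle mice it ranged from 0.0367 to 0.621, which spans both controls. Dorsal root ganglia, whose sensory neurons also make Htr3a and Htr1d, were checked by 8 marker genes. Their summed level was 3.82 and 7.52 CPM in the controls, where 7 of the 8 had no count, and 7.58 to 17.3 in the SCI mice other than SCI + Vehicle replicate 3, which stood at 60.8. That mouse also had the highest Htr3a (6.15 CPM) and Htr1d (5.24 CPM) of the SCI mice. The part of ganglion tissue in these values was not tested.

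A gene was called against the controls where its log2 fold change exceeded 0.322 in size with an adjusted p (Benjamini-Hochberg) under 0.05. By this rule 2 of the 10 receptor genes were upregulated in SCI + Vehicle vs. Uninjured Control (Htr1b and Htr5a) and none was downregulated. Over all tested genes 29.8% were called, 19.9% upregulated and 9.91% downregulated, so the share of receptors called is near or below that of other genes. In SCI + Atorvastatin vs. Uninjured Control 3 of 10 were called, Htr1b and Htr5a upregulated and Htr3a downregulated, beside 38.9% of all tested genes (24.9% upregulated and 14% downregulated). Both comparisons use the same 2 controls. DESeq2 called 4 and 6 of the 10, beside 37.3% and 44.8% of all genes. Without Uninjured Control replicate 2 the counts were 4 and 8 and without replicate 1 they were 3 and 4, where the calls over all genes also rose, to 48.5% and 61.1% without replicate 2 and to 47.7% and 60.3% without replicate 1. This fit takes the lone control to vary like the SCI mice. Among the 6 members with counts in both controls, a filter chosen after the data were seen, 0 and 3 were called, the latter Htr1a, Htr2a and Htr3a (in SCI + Vehicle mice 2 of the 6 had an unadjusted p below 0.05). Under this filter 26.7% and 37.7% of 11126 genes were called. All SCI + Vehicle mice lay above both controls for 4 members (24.8% of all genes) and below both for 1 (10.7%). All SCI + Atorvastatin mice lay above both for 3 members (29.8% of all genes) and below both for 3 (14.2%). The log2 fold change was above 0 for 5 members and below 0 for 5 in each comparison. Of the 5 above 0, Htr2b and Htr5a reached the TPM limit through the SCI groups alone, and Htr1f through the SCI + Atorvastatin group alone. This fixes the direction of all 3, and so their signs are no result.

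**Figure D3:**
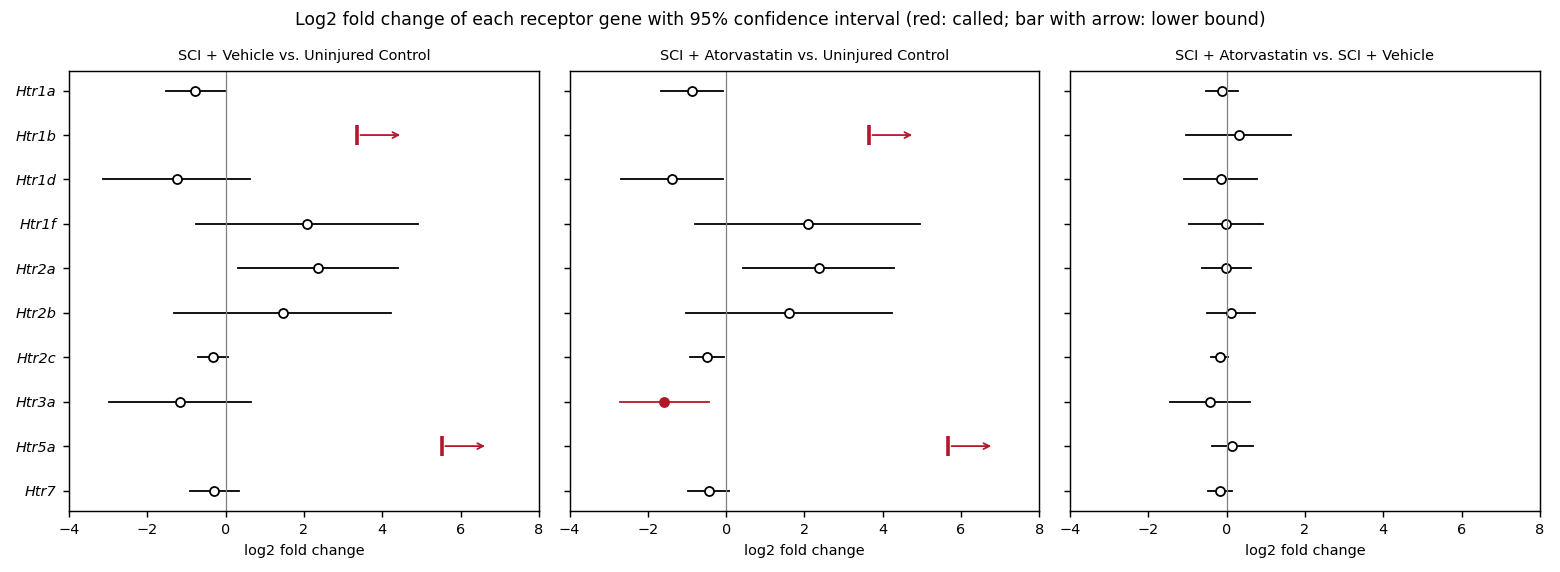
Points are log2 fold changes of edgeR with 95% confidence intervals as lines for the 10 receptor genes in the 3 comparisons, filled red where called. For Htr1b and Htr5a, without counts in either control, a red bar with an arrow gives the lower bound on the log2 scale. Intervals against the controls are several times wider than those between the treatments for Htr1f, Htr2a and Htr2b, and wider to a lesser degree for Htr1d.

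The question of SCI + Atorvastatin vs. SCI + Vehicle is whether delayed atorvastatin altered receptor expression in the injured cord. No receptor gene was called at an unadjusted p below 0.001, the limit used between the treatments, which 0.106% of all tested genes passed. In edgeR 0 of 10 had an unadjusted p below 0.05, and DESeq2 and limma also called 0. The largest difference relative to its error was that of Htr2c, with a log2 fold change of -0.18 ± 0.10 (95% interval -0.39 to 0.04, unadjusted p = 0.103, adjusted p = 0.749). An exact permutation test over 3432 assignments of the 14 mice, two-sided, gave p = 0.110 for Htr2c, the lowest of the 10. Without SCI + Atorvastatin replicate 1 the unadjusted p of Htr2c was 0.0180 and the adjusted p 0.600. Intervals were narrow for Htr2c, Htr7 (-0.48 to 0.13), Htr1a (-0.53 to 0.28) and Htr5a (-0.38 to 0.66). They were wide for Htr1b (-1.03 to 1.65), Htr3a (-1.46 to 0.61), Htr1d (-1.09 to 0.79), Htr1f (-0.97 to 0.94), Htr2b (-0.51 to 0.73) and Htr2a (-0.64 to 0.63), where changes of such sizes were not detectable.

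The spread among mice of a group was also uneven between receptors. Htr2c had the smallest coefficient of variation in the SCI + Vehicle group (11.05%), and Htr1b the largest (128%), beside 70.8% for the median gene at the level of Htr1b. In the SCI + Atorvastatin group the coefficient ran from 14.3% for Htr7 to 60.6% for Htr1f. Across the 14 SCI mice, with each group centred on its mean, the log2 CPM of Htr2c was most like that of Acvr1b (Pearson r = 0.923), Syt1 (0.905) and Atp2b3 (0.872) among 12825 genes. Syt1 encodes the calcium sensor of synaptic vesicles and is one of the neuron markers. Htr5a was most like Zscan22 (0.847), Chd6 (0.832) and Ccdc151 (0.829). Among the receptors themselves the strongest values were -0.796 for Htr7 with Htr1d and 0.609 for Htr1f with Htr1b (n = 14 mice, sharing library depth and dissection, given as a description).

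**Figure D4:**
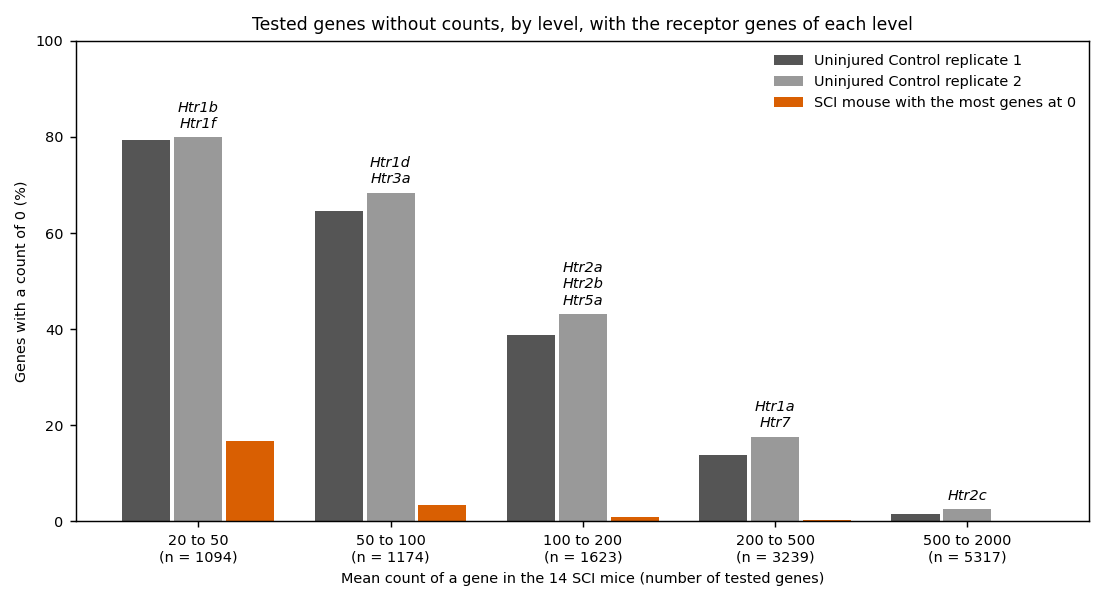
Bars give the percentage of tested genes without a count in each Uninjured Control mouse and in the SCI mouse with the most such genes, for bins of mean count in the 14 SCI mice, with the receptor genes of each bin named above. In the bin of 100 to 200 counts that holds Htr5a, the controls stand at 38.8% and 43.1% and no SCI mouse exceeds 0.924%.

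Of the serotonin receptors outside the 10, Htr6 and Htr4 had levels within the range of the members, and Htr3b and Htr5b were low. Htr6 (5-HT6, Gs-coupled) was at 4.52 and 4.89 CPM in the controls, 0.836 to 4.08 in SCI + Vehicle mice and 0.769 to 3.89 in SCI + Atorvastatin mice. Its log2 fold changes of -1.06 ± 0.73 and -1.50 ± 0.63 did not pass (adjusted p = 0.300 and 0.0844). The controls of Htr6, at 90 and 108 counts, read 0 and 10.9 by TPM, so counts and TPM disagree there. Htr4 (5-HT4, also Gs-coupled) was at 8.94 and 3.35 CPM in the controls, 1.89 to 6.36 in SCI + Vehicle mice and 1.04 to 5.02 in SCI + Atorvastatin mice, and had log2 fold changes of -0.88 ± 0.61 and -1.04 ± 0.62 (adjusted p = 0.305 and 0.215). Htr3b and Htr5b did not reach the TPM limit, had no count in either control, and had at most 59 and 30 counts in an SCI mouse.

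Genes that make serotonin or its cofactor were lower in the injured cord where they passed. Of 5 tested, Gch1 (the first enzyme of tetrahydrobiopterin synthesis) and Qdpr (which recycles this cofactor) were downregulated in both comparisons with the controls, and Ddc (the decarboxylase that forms serotonin and dopamine) in SCI + Atorvastatin mice alone. Gch1 fell by 1.37 on the log2 scale in SCI + Vehicle mice (adjusted p = 0.0481) and by 1.41 in SCI + Atorvastatin mice (adjusted p = 0.0141). Qdpr fell by 0.58 (adjusted p = 0.00912) and by 0.57 (adjusted p = 0.00280). Ddc was at -0.90 (adjusted p = 0.164) and -1.26 (adjusted p = 0.0221), a difference between the treatments that was not called. The controls of Ddc stood at 10.7 and 27.6 CPM. The lower one lay inside the SCI + Vehicle range of 7.06 to 15.8 and just above the highest SCI + Atorvastatin mouse (10.3). Pts and Spr did not pass in either. Tph1 and Tph2, the hydroxylases that start serotonin synthesis and whose neuronal form Tph2 is made in the raphe, had at most 23 and 17 counts in any mouse and none in the controls.

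Among 6 tested genes of serotonin transport and breakdown, Maoa (the oxidase with preference for serotonin) was upregulated and Maob and Slc29a4 (a low-affinity monoamine transporter) were downregulated in both comparisons. Maoa rose by 0.71 on the log2 scale in each (adjusted p = 0.00993 and 0.00608), from 33.5 and 42.4 CPM in the controls to 53.3 or more in each SCI mouse. Maob fell by 0.81 (adjusted p = 0.0412) and by 0.76 (adjusted p = 0.0222). Slc29a4 fell by 1.48 (adjusted p = 0.0333) and by 1.43 (adjusted p = 0.0287), but its controls stood at 14.2 and 84.9 CPM and the lower one lay inside the SCI range of 12.3 to 24.97. Aldh2, Inmt and Slc18a2 did not pass. Inmt had 600 and 0 counts in the controls and Aldh2 252 and 61.8 CPM, with the high value in the control that also had 3957 CPM of liver markers. The part of liver RNA in these values was not tested. Slc6a4, Slc18a1 and Slc22a3 did not reach the TPM limit and had no count in the controls.

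The counts that follow for genes downstream of the receptors are to be read against the 29.8% and 38.9% of all tested genes called in the SCI + Vehicle and SCI + Atorvastatin comparisons. Of the Gi/o genes, 2 of 8 tested were downregulated in both comparisons, Kcnj9 (a GIRK potassium channel subunit, log2 fold change -1.41 in SCI + Vehicle and -1.35 in SCI + Atorvastatin mice) and Gnai1 (an inhibitory G protein subunit, -0.69 and -0.77). Of 12 Gq genes, 3 were called in each comparison. Itpr2, an inositol trisphosphate receptor of glia and other cells, rose by 1.52 and 1.60 and the phospholipase Plcb4 by 0.44 and 0.36, while Gna11 fell by 0.50 in SCI + Vehicle mice and Plcb1 by 0.33 in SCI + Atorvastatin mice. Of 17 Gs genes, 4 were called in SCI + Vehicle mice (1 upregulated) and 7 in SCI + Atorvastatin mice (2 upregulated). Adcy7, the adenylyl cyclase of microglia and blood cells, rose by 2.05 and 2.18, whereas Gnal (-0.64 and -0.88) and the neuronal regulatory subunit Prkar1b (-0.45 and -0.61) were downregulated. Prkar2b fell by 0.85 and 0.69. Adcy6 (0.70 and 0.88) and Gnas, the stimulatory G protein subunit (-0.45 and -0.56), passed in SCI + Atorvastatin mice alone, a difference between the treatments that was not called. Of 12 tested partners and editing enzymes, 4 and 5 were called. Mpdz, a scaffold that binds the 5-HT2C receptor, rose by 1.103 and 1.214 and S100a10, an adaptor of the 5-HT1B receptor, by 0.63 and 0.73. Dlg4, the postsynaptic scaffold PSD-95, fell by 0.64 and 0.88 and Adarb1, an enzyme that edits the Htr2c transcript, by 0.54 and 0.71. Adrbk1, a receptor kinase, was at -0.49 and -0.57 and passed in SCI + Atorvastatin mice alone.

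**Figure D5:**
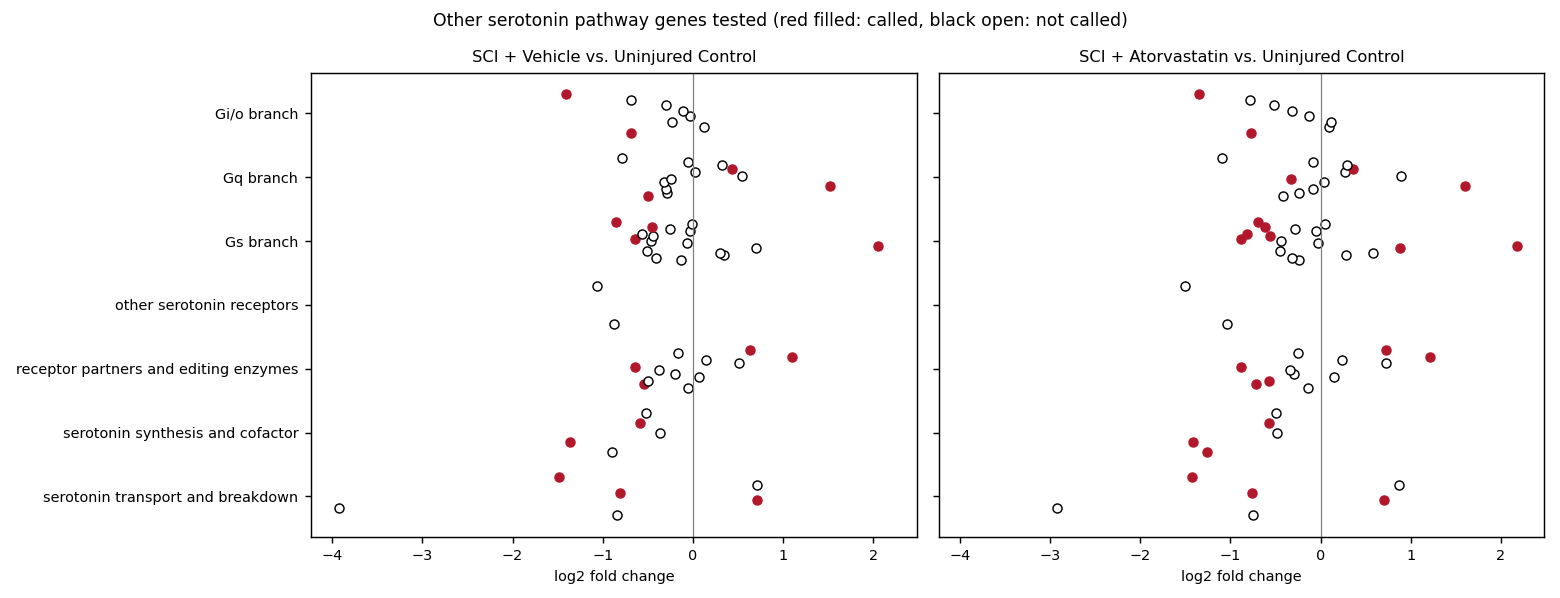
Each point is the log2 fold change of 1 of the 62 other serotonin pathway genes tested against the Uninjured Control group, by list and comparison, filled red where called. Called genes lie mostly below 0 (12 of 18 in the SCI + Vehicle panel and 16 of 23 in the SCI + Atorvastatin panel), where 29.8% and 38.9% of all tested genes were called and upregulated genes outnumbered downregulated ones.

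In all, SCI + Vehicle vs. Uninjured Control gave 18 calls among the 62 other pathway genes tested (6 upregulated and 12 downregulated) and 23 in SCI + Atorvastatin vs. Uninjured Control (7 and 16). This is near the 29.8% and 38.9% of all tested genes, among which 19.9% and 24.9% were upregulated and 9.91% and 14% downregulated. Of the genes with counts in both controls, 12.1% and 16.7% were upregulated and 14.6% and 21% downregulated, and 59 of the pathway genes gave 18 calls (6 and 12) and 27 calls (7 and 20). Neuron markers moved the same way, with 11 and 12 of 15 downregulated and a median log2 fold change of -0.64 and -0.77, and microglia or macrophage markers the other way, with 5 and 6 of 8 upregulated. Their part in the pathway results was not tested. Between the treatments 0 of the 62 were called by edgeR, DESeq2 or limma, and 8 had an unadjusted p below 0.05 in edgeR (lowest adjusted p = 0.680).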

How the data were processed

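RNA was sequenced with a stranded total RNA kit. Per the labels and the study's methods, the authors used Trimmomatic 0.38 for trimming, STAR 2.5.4b for alignment to mm10 and RSEM 1.3.1 for quantification. The deposited values are whole-number counts, not normalized, and TPM, both per gene. The step behind the counts and its strand setting are not given in the sources used here. All 16 columns matched a labelled mouse. Groups came from the labels, and p-values set differences between groups against the spread between mice. In comparisons with the controls (n = 2) that spread rests mostly on the SCI mice (n = 7). Counts were compared pair by pair with the quasi-likelihood test of edgeR 4.0.16 (R 4.3.3) after TMM scaling, on the 16091 genes whose mean TPM exceeded 1 in any group, with Benjamini-Hochberg adjustment. The alternatives were DESeq2 1.42.0, its size factors in edgeR, other gene filters, 1 fit of all groups, limma 3.58.1 on log2(TPM + 1), an exact permutation test, a replicate block and leaving out each mouse. The code was tested on simulated data. Members, the 7 pathway lists and the 12 marker lists were chosen with earlier results of these data known. Named were all members, all genes of the receptor, synthesis and transport lists, up to 3 called genes by p for each other list and direction, and for Htr2c (highest TPM) and Htr5a (lowest p against the controls) the 3 most correlated genes with a mean of at least 100 counts. Gene positions are from GENCODE (GRCm38). Promoters are from RefSeq (GRCm38.p6), and their first 250 bases were used.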

Additional observations from a re-analysis of the deposited data

Results flagged for a closer look

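In the SCI + Vehicle group, Htr1b in replicate 1 (5.33 CPM, 127 counts) lay far above the other 6 mice (0.172 to 1.72 CPM) by Dixon's test for a single outlying sample. It was the only 1 of 20 groups of receptor values tested that did, and chance flags about 1 in 20.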

How the results depend on the processing

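The number of receptors called in SCI + Vehicle vs. Uninjured Control (2) became 4 with DESeq2, 0 with a mean TPM above 1 in every group, 0 with at least 10 counts in every mouse, 0 among genes with counts in both controls (chosen after seeing the data) and 1 to 4 with each mouse left out. All 3 filters remove Htr5a by construction, and those on counts remove Htr1b too. In SCI + Atorvastatin vs. Uninjured Control the 3 calls became 6 with DESeq2, 1 with the TPM limit in every group, 5 with all 3 groups in 1 fit, 5 with limma on log2(TPM + 1) and 2 to 8 with each mouse left out. The 18 pathway calls in SCI + Vehicle mice became 9 with limma and 10 to 27 with each mouse left out, and the 23 in SCI + Atorvastatin mice became 19 to 39. A replicate block gave 0 receptors and 0 pathway genes in both, with 27 and 0 calls over all genes, and leaves few degrees of freedom. Same-numbered mice correlated at -0.18 to 0.10 between the treatments (7 pairs, none closest to its own number), so they share only a number. Between the treatments 0 receptors were called under each of these settings and directions near 0 turned. Htr1d went from -0.15 to 0.11 with limma, 0.13 with the block and -0.31 to 0.13 with each mouse left out, Htr1f from -0.02 to 0.31 with limma and -0.30 to 0.17, Htr2a from -0.01 to 0.062 with limma, 0.019 with the block and -0.14 to 0.25, Htr2b from 0.11 to between -0.032 and 0.21, and Htr5a from 0.14 to between -0.037 and 0.27. Htr1d against the controls ranged from -2.02 to 0.46 in SCI + Vehicle mice and from -2.16 to 0.33 in SCI + Atorvastatin mice, the upper ends without Uninjured Control replicate 1. Other causes of these shifts were not tested. With only 2 controls, where 38.8% and 43.1% of genes at the level of Htr5a hold no count, levels below 200 counts are poorly fixed.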
